A study of Mus musculus with 9 samples.

Results

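Mecom, Prdm16, Mllt3, Meis1, Meis2, Pbx2, Pbx3 and Pknox1 encode 8 nuclear regulators, which were followed across 3 cell populations sorted from the aorta-gonad-mesonephros (AGM) region of mouse embryos. The genes were taken by symbol from the platform annotation, each had 1 probe set, and they make up 8 of the 20405 named genes on the arrays. The AGM region surrounds the dorsal aorta, whose endothelial wall gives rise to blood stem and progenitor cells. All cells came from C57Bl6 embryos at stage E11.5, and the labels name no mutation, transgene or treatment. Cells were sorted on CD144, the endothelial cadherin encoded by Cdh5, and on CD45, a leukocyte phosphatase whose gene is Ptprc. The populations, with 3 arrays each, are EC (CD144+CD45-, endothelial cells), HSPC (CD144+CD45+, hematopoietic stem/progenitor cells) and HC (CD144-CD45+, hematopoietic cells).

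The 8 genes fall into 3 families. MECOM (also known as EVI1 or MDS1-EVI1) and PRDM16 are zinc finger proteins that share a PR domain, and both are known in the mouse for their part in keeping blood stem cells. MLLT3 (AF9) reads acylated histones and recruits transcription elongation factors and the histone methyltransferase DOT1L; it is known for maintaining human blood stem cells and as a fusion partner of KMT2A (MLL) in leukaemia. MEIS1, MEIS2, PBX2, PBX3 and PKNOX1 (PREP1) belong to the TALE class of homeodomain proteins, named for an extended loop in the homeodomain. MEIS and PKNOX proteins bind PBX proteins, and these complexes bind DNA together with HOX proteins; Meis1 and Pknox1 are required for blood formation in the mouse embryo.

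Values are log2 expression, so that a difference of 1 is a 2-fold change, and groups are given as mean ± SD with n = 3 arrays. Differences come from limma fitted over all 20405 genes and 9 arrays, with Benjamini-Hochberg adjusted p over all genes and a threshold of 0.05. The sort was visible in its own genes: Cdh5 lay between 11.56 and 11.84 in EC, 9.76 and 11.11 in HSPC and 5.09 and 6.36 in HC, and Ptprc between 4.37 and 4.50, 8.62 and 9.13, and 9.87 and 10.06. The mean of 10 endothelial markers lay in the range 10.3 to 10.5 over the EC arrays, 8.29 to 9.59 over HSPC arrays and 5.31 to 6.06 over HC arrays, where 8 of the 10 were above background. The mean of 10 macrophage markers lay at 4.89 to 5.42, 8.55 to 10.1 and 10.7 to 10.9 in the same order, and that of 10 granulocyte markers 4.52 to 5.30, 6.09 to 6.29 and 9.22 to 9.65. Background is taken as 4.69, under which 95% of the values of 1286 odorant and pheromone receptor genes lay. HSPC thus carried transcripts of both endothelial and macrophage lists, and their part in the differences below was not tested. Nothing in the labels ties the arrays of 1 population to separate embryos or sorts; p-values therefore rest on the spread of these samples alone, and that spread may be technical.

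Of the 8 genes, 2 were higher in HSPC than in EC (Mllt3 and Meis1), 2 were lower (Meis2 and Pbx3) and 4 did not pass the test. Over all genes 16.5% were called, 8.55% higher in HSPC and 7.94% lower; the share of calls that were higher was 51.8%, and 41.3% after each array was centred on its median. Against HC, 5 of the 8 were higher in HSPC (Mecom, Prdm16, Mllt3, Meis1 and Pbx2) and 0 lower, where 14.6% of all genes were called, 7.01% higher and 7.61% lower. Between HC and EC, 5 were lower in HC (Mecom, Prdm16, Mllt3, Meis2 and Pbx3) and 0 higher, where 27.4% of all genes were called, 12.6% lower and 14.8% higher. At an unadjusted limma p under 0.05 the counts of higher and lower genes were 5 and 0 for HSPC against HC, and 1 and 6 for HC against EC. The median difference of the 8 genes was 0.13 for HSPC minus EC, 0.97 for HSPC minus HC and -0.99 for HC minus EC, beside 0.01, -0.03 and 0.05 over all genes. Arrays of HSPC and EC did not overlap for 5 of the 8 genes (28.2% of all genes), those of HSPC and HC for 5 (29.6%) and those of HC and EC for 7 (39.2%). These comparisons share arrays and are not independent of each other.

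**Figure D1:**
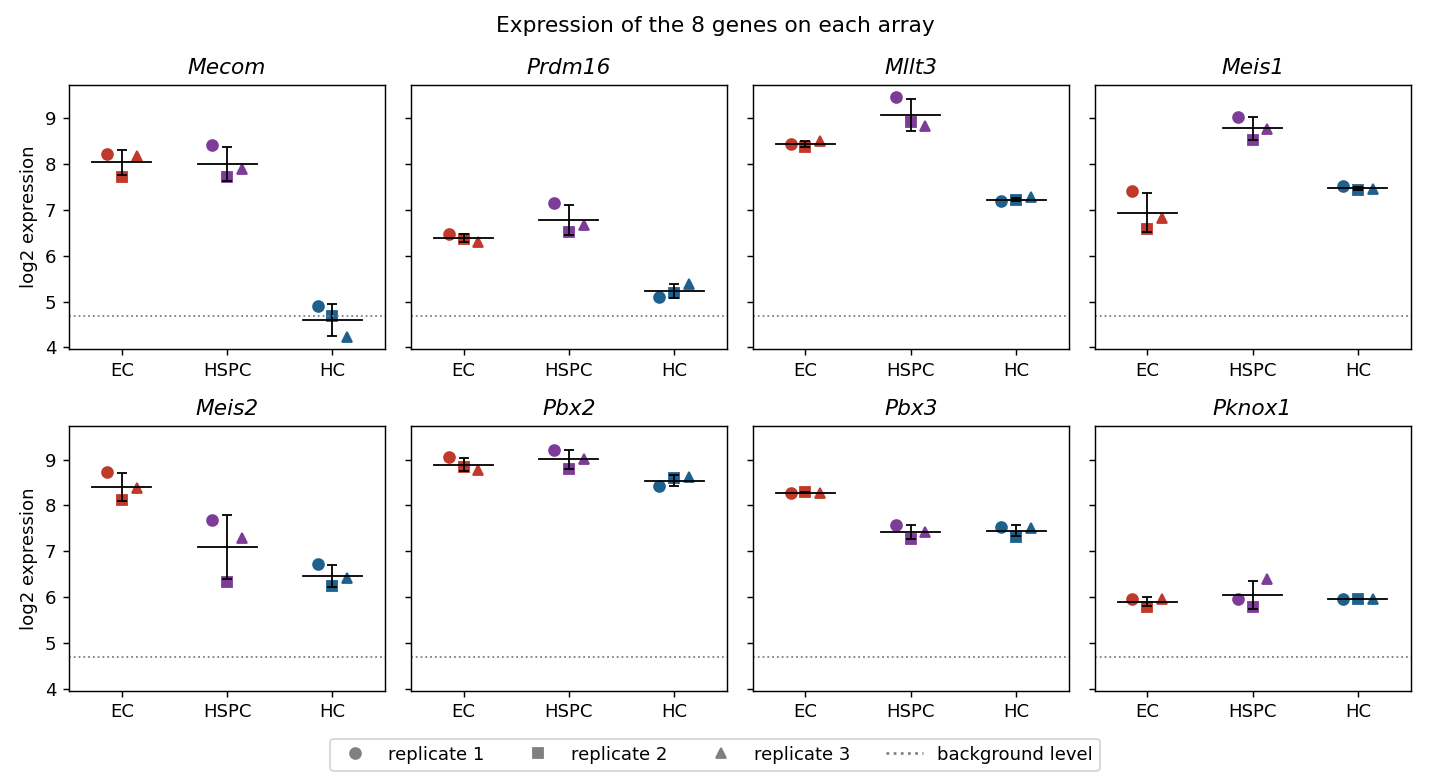
Log2 expression of the 8 genes (vertical axis, 1 panel a gene) on each array of EC, HSPC and HC; symbols are arrays, horizontal lines the means of 3 arrays, bars the SD and the dotted line the background level of 4.69. Mecom arrays of HC lie at the background level, Meis1 is highest in HSPC, and levels are to be compared within a panel only.

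Mecom separated HC from both CD144+ populations. It stood at 8.22, 7.72 and 8.18 in EC replicates 1, 2 and 3, at 8.43, 7.71 and 7.90 in HSPC, and at 4.91, 4.68 and 4.22 in HC. The EC and HSPC arrays overlapped, and every HC array lay far below them, 2 of the 3 under the background level. The means were 8.04 ± 0.27 in EC, 8.01 ± 0.37 in HSPC and 4.60 ± 0.35 in HC. HC differed from EC by -3.44 ± 0.23 SE (limma adjusted p = 8.79e-06) and HSPC from HC by 3.41 ± 0.23 SE (adjusted p = 7.24e-05). Because the HC mean was at background, the folds are bounds, taken from the means without their sampling error. By the means, Mecom was at least 9.68-fold lower in HC than in EC and at least 9.51-fold lower than in HSPC. The 95% confidence intervals ran from -3.96 to -2.91 for HC minus EC and from 2.88 to 3.94 for HSPC minus HC. HSPC and EC were not distinguished, with a difference of -0.03, a 95% confidence interval from -0.55 to 0.50 and an adjusted p of 0.975. In a bulk sample, fewer cells that carry a transcript and less of it per cell cannot be told apart, here and for each gene below.

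The Mecom locus has 2 start sites in the RefSeq table (GRCm38.p6), which lie 496555 bases apart. The long protein with the PR domain comes from transcripts of the far upstream start, and the short EVI1 protein from a start further down; 1 value per gene does not tell them apart. The 250 bases before each start are shown because the values do not say which of them was in use. Capitals mark matches to any of 5 motifs searched on both strands: TGACAG (MEIS and PKNOX core), TGATNNAT (PBX with HOX), TGTGGT (RUNX core), GACAAGATA (MECOM zinc fingers) and CCGGAAGT (ETS).
Mecom, upstream start, chr3:30509760-30510009, minus strand: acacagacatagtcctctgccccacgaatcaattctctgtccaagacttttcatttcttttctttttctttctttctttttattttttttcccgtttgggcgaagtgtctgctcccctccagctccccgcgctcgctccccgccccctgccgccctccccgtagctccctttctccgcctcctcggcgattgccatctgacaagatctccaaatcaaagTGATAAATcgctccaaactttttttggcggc
Mecom, downstream start, chr3:30013205-30013454, minus strand: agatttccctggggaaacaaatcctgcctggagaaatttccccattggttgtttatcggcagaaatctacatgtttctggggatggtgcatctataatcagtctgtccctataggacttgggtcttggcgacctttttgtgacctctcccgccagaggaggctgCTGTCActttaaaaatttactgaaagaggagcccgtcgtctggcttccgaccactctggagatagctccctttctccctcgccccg
The upstream start had 1 match, to TGATNNAT, which 7.68% of the 32851 mouse start sites in the table also hold in this window. The downstream start had 1 match, to TGACAG on the opposite strand, 86 to 81 bases before the start; 15.9% of all start sites hold it. A match is a match of letters and shows no binding.

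Prdm16 was likewise lowest in HC, by a smaller difference. It stood at 6.47, 6.36 and 6.30 in EC, at 7.15, 6.51 and 6.68 in HSPC and at 5.11, 5.18 and 5.39 in HC. The 3 populations did not overlap, with HSPC above EC and EC above HC. The means were 6.38 ± 0.09, 6.78 ± 0.33 and 5.23 ± 0.15. Prdm16 was 2.22-fold lower in HC than in EC (-1.15 ± 0.16 SE, limma adjusted p = 0.000465) and 2.94-fold higher in HSPC than in HC (1.55 ± 0.16 SE, adjusted p = 0.000424). Between HSPC and EC the difference of 0.40 had an adjusted p of 0.131 and a 95% confidence interval from 0.05 to 0.75, so the order of these neighbours is not settled.

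Mllt3 was highest in HSPC. It stood at 8.43, 8.38 and 8.50 in EC, at 9.47, 8.92 and 8.82 in HSPC and at 7.19, 7.22 and 7.27 in HC. No 2 populations overlapped, and the HC arrays lay within 0.1 of each other. The means were 8.44 ± 0.06, 9.07 ± 0.35 and 7.23 ± 0.04. HSPC were 3.58-fold above HC (1.84 ± 0.15 SE, limma adjusted p = 0.000147) and HC 2.31-fold below EC (-1.21 ± 0.15 SE, adjusted p = 0.000268). The step from EC to HSPC was 1.55-fold (0.63 ± 0.15 SE, adjusted p = 0.0187), and it was not called without EC replicate 1 (adjusted p = 0.0574) or EC replicate 2 (0.0628), or when the HSPC and EC arrays were fitted alone (0.0654).

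Mllt3 also has 2 start sites, 227084 bases apart, and they differ in base composition. They are shown for the same reason as those of Mecom, with the same motifs in capitals.
Mllt3, upstream start, chr4:88033408-88033657, minus strand: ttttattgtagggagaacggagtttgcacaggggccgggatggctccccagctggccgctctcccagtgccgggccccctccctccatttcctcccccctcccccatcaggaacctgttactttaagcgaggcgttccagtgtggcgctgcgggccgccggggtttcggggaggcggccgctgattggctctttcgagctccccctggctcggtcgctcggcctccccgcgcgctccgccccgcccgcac
Mllt3, downstream start, chr4:87806324-87806573, minus strand: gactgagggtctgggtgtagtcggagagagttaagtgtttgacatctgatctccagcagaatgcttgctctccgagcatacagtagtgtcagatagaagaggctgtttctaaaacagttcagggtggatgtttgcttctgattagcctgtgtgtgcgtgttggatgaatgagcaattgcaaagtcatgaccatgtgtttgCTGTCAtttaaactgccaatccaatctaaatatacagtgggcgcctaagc
G and C made up 69.2% of the bases before the upstream start, which held 0 motif matches, and 45.2% before the downstream start, which held 1 match to TGACAG, 50 to 45 bases before the start. Prdm16 has 1 start site in the table and held 0 matches.

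Meis1 was the member with the largest step from EC to HSPC. It stood at 7.41, 6.59 and 6.82 in EC, at 9.03, 8.53 and 8.78 in HSPC and at 7.52, 7.44 and 7.45 in HC. Every HSPC array was more than 1 log2 unit above every HC and EC array, and the HC arrays lay just above the highest EC array. The means were 6.94 ± 0.43, 8.78 ± 0.25 and 7.47 ± 0.04. HSPC were 3.58-fold above EC (1.84 ± 0.20 SE, limma adjusted p = 0.000363) and 2.48-fold above HC (1.31 ± 0.20 SE, adjusted p = 0.00313). The difference of HC from EC, 0.53, had an adjusted p of 0.0873; without EC replicate 1, the highest of the EC arrays, it was 0.77 (adjusted p = 0.00601).

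The bases before the single Meis1 start site in the table are shown because Meis1 had the largest HSPC increase over EC of the 8 genes.
Meis1, chr11:19018970-19019219, minus strand: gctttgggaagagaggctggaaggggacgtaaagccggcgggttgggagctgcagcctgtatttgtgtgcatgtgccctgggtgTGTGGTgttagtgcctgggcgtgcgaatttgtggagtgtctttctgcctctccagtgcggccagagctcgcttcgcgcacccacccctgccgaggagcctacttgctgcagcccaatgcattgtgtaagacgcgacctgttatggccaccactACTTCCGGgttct
It held 1 match to the RUNX core TGTGGT, found before 14% of all start sites, and 1 match to the ETS motif on the opposite strand, 13 to 6 bases before the start, found before 2.88%. The start sites of Meis2 and Pbx2 held 0 matches.

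Meis2, the closest relative of Meis1 among the 8, had a different order, with EC highest. It stood at 8.73, 8.12 and 8.38 in EC, at 7.67, 6.32 and 7.28 in HSPC and at 6.71, 6.24 and 6.42 in HC. EC lay above all other arrays, while HSPC and HC overlapped through HSPC replicate 2. The means were 8.41 ± 0.31, 7.09 ± 0.70 and 6.45 ± 0.24. Meis2 was 3.88-fold lower in HC than in EC (-1.95 ± 0.32 SE, limma adjusted p = 0.00136) and 2.49-fold lower in HSPC than in EC (-1.32 ± 0.32 SE, adjusted p = 0.0199). The latter was not called without EC replicate 1 (adjusted p = 0.0772) or EC replicate 3 (0.0565), nor in a fit of HSPC and EC alone (0.0640). HSPC and HC differed by 0.64 (adjusted p = 0.243, 95% confidence interval -0.08 to 1.35); without HSPC replicate 2 the difference was 1.02 with an adjusted p of 0.0137.

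Of the PBX genes, Pbx3 was higher in EC than in both CD45+ populations. Its EC arrays stood at 8.28, 8.28 and 8.26, those of HSPC at 7.56, 7.27 and 7.42 and those of HC at 7.52, 7.31 and 7.51. The HC arrays lay within the range of the HSPC arrays, and all 6 lay below EC. The means were 8.27 ± 0.01, 7.42 ± 0.15 and 7.44 ± 0.12. Pbx3 was 1.81-fold lower in HSPC than in EC (-0.86 ± 0.09 SE, limma adjusted p = 0.000313) and 1.78-fold lower in HC than in EC (-0.83 ± 0.09 SE, adjusted p = 0.000128). The difference between HSPC and HC was -0.03, with a 95% confidence interval from -0.23 to 0.18 (adjusted p = 0.896).

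Pbx2 varied little. It stood at 9.05, 8.83 and 8.78 in EC, at 9.22, 8.79 and 9.02 in HSPC and at 8.42, 8.59 and 8.62 in HC. EC and HSPC overlapped, and both lay above HC. The means were 8.89 ± 0.15, 9.01 ± 0.21 and 8.54 ± 0.11. HSPC were 1.38-fold above HC (0.46 ± 0.12 SE, limma adjusted p = 0.0355). It was not called once EC replicate 2 was left out (adjusted p = 0.0532), nor without HSPC replicate 1 (0.106) or 3 (0.0928) or HC replicate 1 (0.116), 2 (0.0755) or 3 (0.0665). Pbx2 differed between HC and EC by -0.34 (adjusted p = 0.0702), which was called without HSPC replicate 1 (0.0427) or 2 (0.0418), and between HSPC and EC by 0.12 (adjusted p = 0.649, 95% confidence interval -0.16 to 0.40).

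Pknox1 showed no called difference. It had the identical value of 5.96 on 6 of the 9 arrays, which the median polish step of RMA can produce, and the others were 5.79 in EC replicate 2, 5.79 in HSPC replicate 2 and 6.38 in HSPC replicate 3. The 3 populations overlapped. The 95% confidence intervals ran from -0.17 to 0.45 for HSPC minus EC, from -0.23 to 0.40 for HSPC minus HC and from -0.25 to 0.37 for HC minus EC. Its adjusted p lay at 0.624, 0.756 and 0.819.

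**Figure D2:**
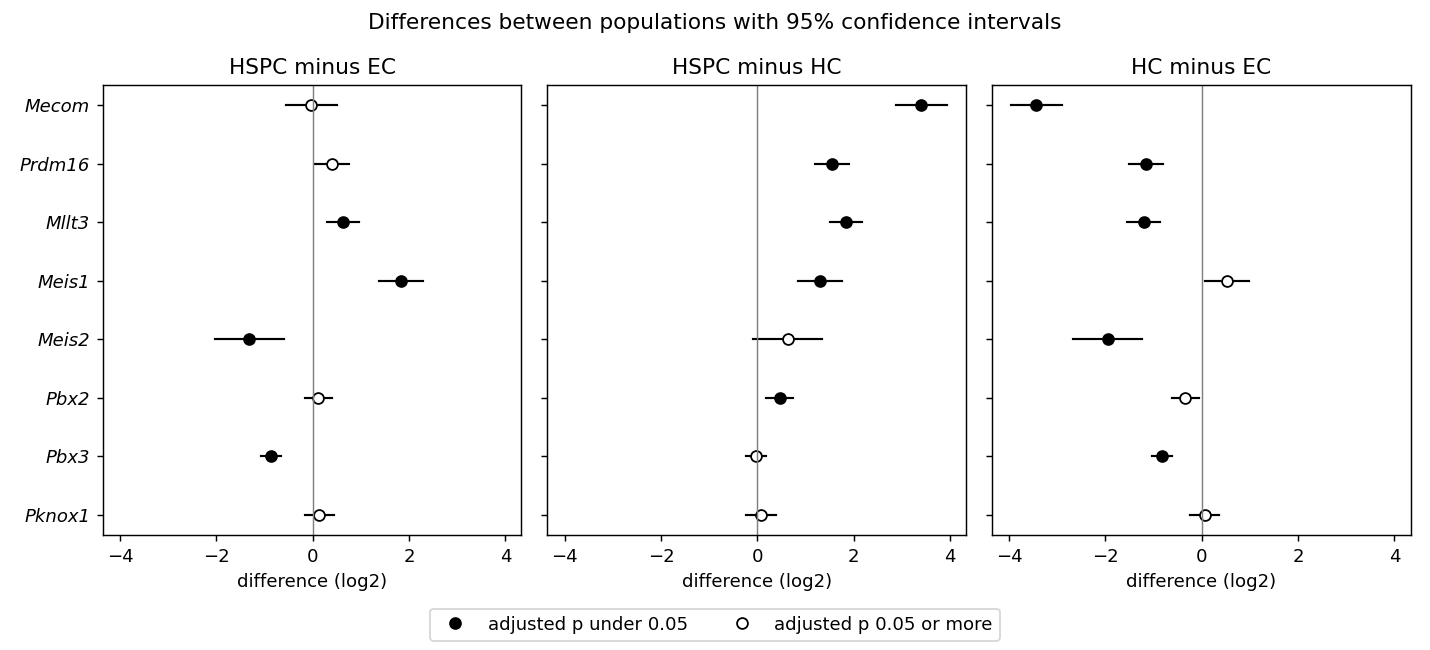
Differences in log2 expression (horizontal axis) of the 8 genes in the 3 comparisons, with 95% confidence intervals of the limma fit; filled points have an adjusted p under 0.05. Mecom lies furthest from 0 in both comparisons with HC and lies at -0.03 in HSPC minus EC, where Meis1 (1.84) and Meis2 (-1.32) lie on opposite sides of 0.

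HSPC were also set against the midpoint of the EC and HC means, to test whether a gene departed from an intermediate level on the log2 scale. Transcripts of mixed cells add up before the logarithm is taken. An equal mixture of EC and HC would therefore lie above this midpoint wherever EC and HC differ, the more so for large differences such as that of Mecom. A call above the midpoint thus does not tell a departure from such a mixture. Of the 8 genes, 4 were above the midpoint and 1 below, where 6.56% of all genes were called, 3.79% above and 2.77% below. The share of these calls above was 57.7%, and 45.2% after median centring. In the same comparison 5 of 10 endothelial markers (median difference 0.98), 8 of 10 pan-leukocyte markers (1.34) and 5 of 10 macrophage markers (1.26) were called above the midpoint. With 1 array left out, these counts ranged from 2 to 7, from 7 to 9 and from 1 to 10. Of 10 granulocyte markers, 2 were called above and 5 below (median difference -1.65). The part of these cells in the members' values was not tested. The members above were Mecom (1.69 ± 0.20 SE, limma adjusted p = 0.00173), Meis1 (1.58 ± 0.17 SE, adjusted p = 0.00119), Mllt3 (1.24 ± 0.13 SE, adjusted p = 0.000864) and Prdm16 (0.98 ± 0.13 SE, adjusted p = 0.00357). Pbx3 was below it (-0.44 ± 0.08 SE, adjusted p = 0.0126), a call that was lost without HSPC replicate 3 (adjusted p = 0.0531). For Mecom the midpoint rests on an HC mean at background. Without HSPC replicate 3 the count of all genes called fell from 1339 to 751. Mllt3 and Meis1 were called higher in HSPC than in EC and than in HC, as were 1.27% of all genes. Every HSPC array lay above every EC and HC array for 3 of the 8 genes (Prdm16, Mllt3 and Meis1) and for 3.64% of all genes. Mecom, Prdm16 and Mllt3 were called lower in HC than in both other populations, as were 5.07% of all genes.

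The 3 HSPC arrays differed among themselves in a like way for nearly all members. HSPC replicate 1 was the highest of the 3 for 7 of the 8 genes, Pknox1 being the exception, and HSPC replicate 2 the lowest for 7, with Mllt3 the exception. Over all genes, replicate 1 alone was highest for 28.6% and replicate 2 alone was lowest for 28.1%. The distance between the highest and the lowest HSPC array was 1.35 for Meis2, 0.72 for Mecom and 0.29 for Pbx3. The mean of the 10 endothelial markers was 9.59, 8.29 and 8.99 in HSPC replicates 1, 2 and 3, that of 10 pan-leukocyte markers 8.92, 9.83 and 9.53, and that of the macrophage markers 8.55, 10.1 and 9.42. Replicate 1 was thus also highest for endothelial and lowest for macrophage markers, and replicate 2 the reverse; the part of this in the members' values was not tested.

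**Figure D3:**
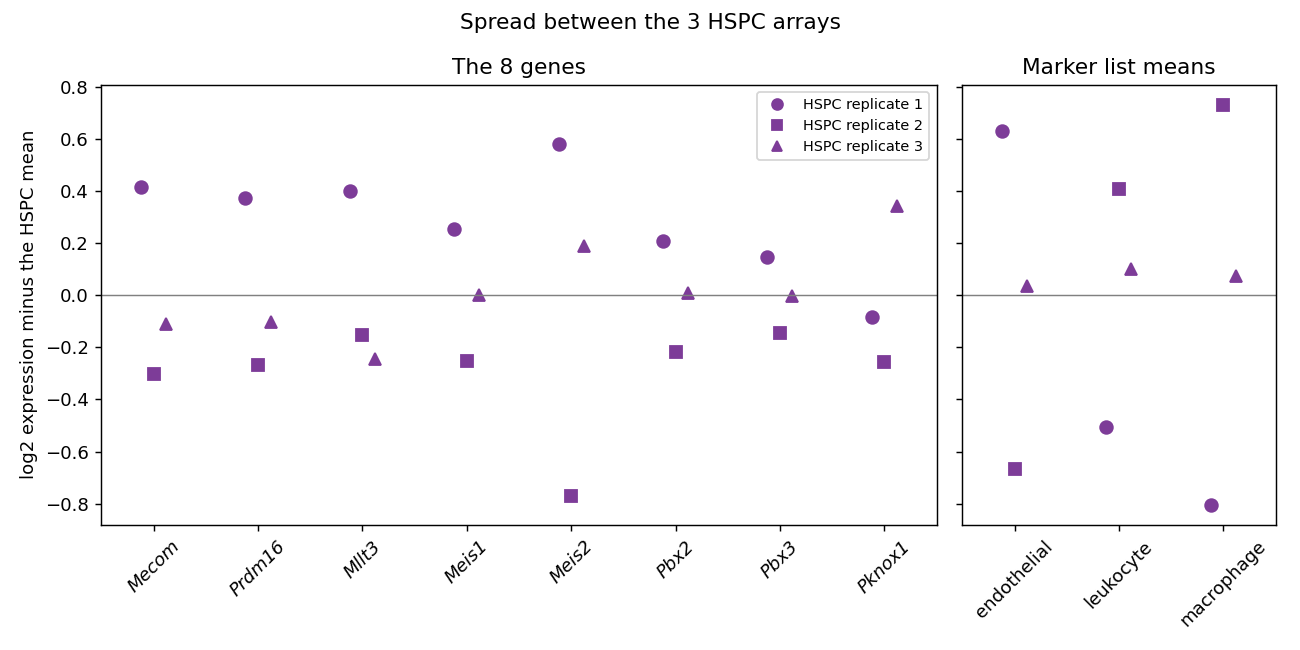
Log2 expression of each HSPC array minus the mean of the 3 HSPC arrays (vertical axis) for the 8 genes, at left, and for the means of 10 endothelial, 10 leukocyte and 10 macrophage markers, at right. Replicate 1 (circles) lies highest for 7 of the 8 genes and for the endothelial markers and lowest for the leukocyte and macrophage markers.

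Of 12 other TALE genes measured, 3 (25%) were lower in HSPC than in EC, beside 7.94% of all genes. The same number were lower in HC than in EC, beside 12.6% of all genes. In these comparisons 0 of the 12 were higher, and 16.5% and 27.4% of all genes were called in either direction. Between HSPC and HC 0 were called (at an unadjusted limma p under 0.05, 1 higher and 1 lower). Those lower than in EC were the Iroquois genes Irx3 (-1.35 in HSPC and -1.68 in HC, limma adjusted p = 0.000828 and 8.77e-05) and Irx5 (-0.43 and -0.51, adjusted p = 0.0342 and 0.00910), and the PKNOX1 relative Pknox2. Levels of Pknox2 in HSPC and HC were at background and, by the means, at least 1.18-fold under EC (limma adjusted p = 0.0325 and 0.000881). Without EC replicate 2 or 3, or HSPC replicate 2 or 3, the count lower in HSPC than in EC was 1. Irx3 kept its call there with each array left out, while Irx5 lost it without any of those 4 arrays or HC replicate 3 (adjusted p = 0.0543 to 0.110), and Pknox2 without any EC or HSPC array (0.0541 to 0.114). The remaining 9, Meis3, Pbx4, Tgif1, Tgif2, Irx1, Irx2, Irx4, Irx6 and Mkx, passed in 0 of the 3 comparisons, with differences between -0.47 and 0.24. The median difference of the 12 genes was -0.05 for HSPC minus EC and 0.03 for HC minus EC.

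Of 11 other PR domain genes, 9.09% were called between HSPC and EC and 9.09% between HSPC and HC, beside 16.5% and 14.6% of all genes. Prdm1 (BLIMP1, a repressor known from plasma cells and germ cells) was the one with an HSPC call. It was 2.53-fold lower in HSPC than in EC (-1.34 ± 0.11 SE, limma adjusted p = 9.47e-05) and 1.90-fold lower than in HC (-0.92 ± 0.11 SE, adjusted p = 0.00110), with means of 7.35 in EC, 6.01 in HSPC and 6.93 in HC. Prdm1 was thus lowest in the population in which Prdm16 had its highest mean. Between HC and EC, Prdm1 (-0.41, adjusted p = 0.0246) and Prdm2 (-0.27) were lower in HC, and Prdm9 (0.54, adjusted p = 0.0395) was higher. Of the 11 genes, 27.3% were called there, beside 27.4% of all genes. The Prdm1 call between HC and EC was lost without EC replicate 1 or 3 or HC replicate 2 or 3 (adjusted p = 0.0667 to 0.0905), and that of Prdm9 without EC or HC replicate 2 or 3 (0.0974 to 0.131) or with median centring (0.0690). Prdm4, Prdm6, Prdm8, Prdm10, Prdm11, Prdm13, Prdm14 and Prdm15 passed in 0 of the comparisons.

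**Figure D4:**
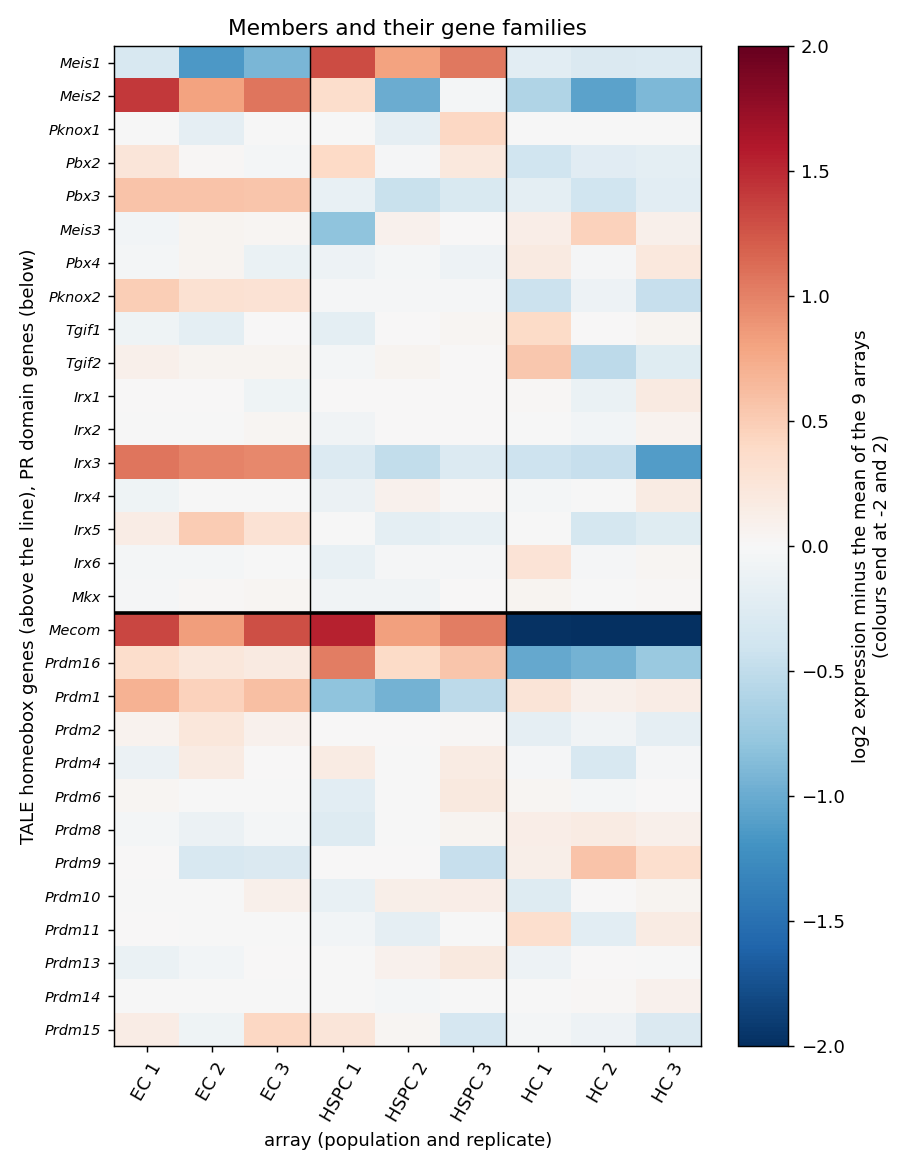
Log2 expression minus the mean of the 9 arrays (colour, red above and blue below, ending at -2 and 2) for TALE homeobox genes above the line and PR domain genes below it, with 1 column an array. Meis1 is red in HSPC, Meis2, Pbx3 and Irx3 are red in EC, Mecom and Prdm16 are blue in HC, and Prdm1 is blue in HSPC.

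The HoxA and HoxB genes read here, which encode DNA-binding partners of the TALE proteins, were mostly lower in HC. Genes of the HoxC and HoxD clusters were not in the list. Of 12 genes from the HoxA and HoxB clusters, 11 were lower in HC than in EC (12.6% of all genes). Of the same 12, 8 were higher in HSPC than in HC (7.01% of all genes), and 5 were lower in HSPC than in EC (7.94%). The medians were -1.12, 0.54 and -0.36. The count lower in HSPC than in EC was 3 without EC replicate 1, 2 or 3 and 2 without HSPC replicate 2 or 3. With 1 array left out, the count higher in HSPC than in HC ranged from 6 to 9. There Hoxb6 lost its call with any array left out except HSPC replicate 2 (limma adjusted p = 0.0502 to 0.104). Hoxb2 lost its call between HC and EC when any EC or HC array, or HSPC replicate 3, was left out (0.0613 to 0.115). Hoxa9, the HOX partner of MEIS1 in mouse leukaemia, stood at a mean of 7.58 in EC, 7.93 in HSPC and 5.95 in HC. Its EC arrays held the identical value, and this SD of 0 is part of the spread behind the SE. Hoxa9 was 1.99 ± 0.14 SE higher in HSPC than in HC (limma adjusted p = 8.6e-05) and 0.35 above EC with an adjusted p of 0.149. By the means, Hoxa5 was at least 4.34-fold lower in HC than in EC and at least 3.47-fold lower than in HSPC. Hoxb5 was lower in HC than in EC (-2.04) and lower in HSPC than in EC (-0.80).

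Of 16 elongation and DOT1L-complex genes, whose products work with MLLT3, 3 (18.8%) were called between HSPC and EC, 2 (12.5%) between HSPC and HC and 4 (25%) between HC and EC, shares near those of all genes (16.5%, 14.6% and 27.4%). The 3 called between HSPC and EC were higher in HSPC, and 0 were lower, also at an unadjusted limma p under 0.05. They were the elongation factor Ell2 (1.48 ± 0.18 SE, limma adjusted p = 0.000707), the scaffold Aff1 (0.92 ± 0.09 SE, adjusted p = 0.000166) and Hexim1, an inhibitor of the elongation kinase (0.40). Unlike Mllt3, Ell2 and Aff1 had their highest means in HC, 2.03 and 1.58 above EC, and Aff1 was lower in HSPC than in HC (-0.66, adjusted p = 0.00159), where Hexim1 was higher (0.28, adjusted p = 0.0477). Aff4 (-0.43, adjusted p = 0.0213) and Mllt6 (-0.31, adjusted p = 0.0486) were lower in HC than in EC. The Hexim1 call against HC was lost without EC replicate 1 or 2, HSPC replicate 1 or 3 or any HC array (adjusted p = 0.0578 to 0.138), and with median centring (0.0625). Aff4 was not called without EC replicate 1 or HC replicate 2 or 3 (0.0603 to 0.0726), nor Mllt6 without EC replicate 1 or 3, HSPC replicate 3 or any HC array (0.0531 to 0.146). Median differences of the list were 0.03 for HSPC minus EC and -0.01 for HSPC minus HC.

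Of 8 genes of the KMT2A and menin complex, 0 were called between HSPC and EC, beside 16.5% of all genes. At an unadjusted limma p under 0.05, 2 of them were higher in HSPC there. Between HSPC and HC, 2 (25%) were called and both were higher in HSPC, beside 14.6% of all genes called. The genes called against HC were Men1, which encodes menin (0.69 ± 0.10 SE, limma adjusted p = 0.00205), and Psip1, which encodes its chromatin tether LEDGF (0.52 ± 0.11 SE, adjusted p = 0.0135). Between HC and EC, Men1 (-0.69) and Kmt2a (-0.48) were lower in HC and Dpy30 (0.29, adjusted p = 0.0309) was higher. The share called there was 37.5%, beside 27.4% of all genes. The Dpy30 call was lost without any EC array or HC replicate 2 (adjusted p = 0.0669 to 0.0900) and with median centring (0.0709), and the Psip1 call without HC replicate 3 (0.0505). Of 9 corepressor genes of MECOM and PRDM16, 0 were called between HSPC and EC (1 higher and 2 lower at an unadjusted limma p under 0.05). The histone deacetylase Hdac2 (0.61) and the histone methyltransferase Ehmt1 (0.52) were higher in HSPC than in HC, and in HC Ehmt1 (-0.76), Hdac2 (-0.67) and Ski (-0.29, adjusted p = 0.0450) were lower than in EC. Of the 9, 22.2% were called between HSPC and HC (14.6% of all genes) and 33.3% between HC and EC (27.4%). Ehmt1 was not called between HSPC and HC without HSPC replicate 1 or 3 or HC replicate 1 or 2 (adjusted p = 0.0504 to 0.0589), nor Ski between HC and EC without EC replicate 1 or 3, HSPC replicate 2 or 3 or HC replicate 1 or 3 (0.05002 to 0.150).

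Genes reported as targets of MECOM or MEIS1, mostly in leukaemia or adult marrow cells, were measured for 8 of 10 entries. Of the 8, 6 were higher in HSPC than in HC, beside 7.01% of all genes, with a median of 1.13. Among them were Hlf, a leucine zipper factor of blood stem cells (3.99 ± 0.16 SE, limma adjusted p = 3.98e-06), and Erg, an ETS factor of endothelium and blood stem cells (3.22 ± 0.14 SE, adjusted p = 6.73e-06). Against EC, 2 were higher in HSPC (8.55% of all genes), Hlf (4.40) and the cytokine receptor Flt3 (2.62). Another 2 were lower (7.94% of all genes), the hypoxia factor Epas1 (-2.15) and the pseudokinase Trib2 (-1.21). In HC, 5 were lower than in EC (12.6% of all genes), among them Epas1 (-4.73) and Erg (-3.33), and Flt3 was higher (1.84). With 1 array left out, the count higher in HSPC than in HC ranged from 4 to 6. There the Flt3 call was lost without HSPC replicate 1 or 2 or HC replicate 2 or 3 (limma adjusted p = 0.0526 to 0.0730). The Gata2 call was lost without HSPC replicate 1 or 3 or HC replicate 2 or 3 (0.0521 to 0.0743).

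For each member with a called difference, the 3 genes of most like pattern were found by the root mean square (RMS) difference of values over the 9 arrays, after each gene's own mean was taken away. This is a description over 3 groups of 3 arrays, in which genes that follow the same groups will look alike. The nearest gene to Prdm16 among all 20405 was Mllt3, and the nearest to Mllt3 was Prdm16, with an RMS difference of 0.158 log2 units and Pearson's r = 0.986 over 9 arrays; by r, Mllt3 ranked 2 for Prdm16 and Prdm16 ranked 4 for Mllt3. Of the pairs among the 8 genes it was the closest, before Pbx2 with Pknox1 at 0.252. Further neighbours of Prdm16 were Mansc1 and the GTPase gene Gimap5, and those of Mllt3 were the guidance ligand Slit2 and Tet1, which oxidises methylated cytosine.

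Nearest to Mecom were Erg (RMS 0.216), the protein C receptor Procr (0.218) and Calcrl, part of the adrenomedullin receptor (0.269). Nearest to Meis1 were the efflux transporter Abcc1 (0.166), coagulation factor F5 (0.168) and Itih5 (0.190). Meis2 was most like the metalloproteinase inhibitor Timp1 (0.163), Garre1 (0.185) and the forkhead factor Foxo1 (0.223). Pbx3 was most like 2810025M15Rik (0.0759), Agap3 (0.0772) and the kinesin Kif1b (0.0857), and Pbx2 like Ube2g1, Zfp280d and Trim33 (0.0785 to 0.0869). Neighbours depend on the measure. By Pearson's r, Calcrl ranked 1 for Mecom, but Foxo1 ranked 40 for Meis2 and Kif1b 37 for Pbx3. Tet1 ranked 23 for Mllt3, Mansc1 19 for Prdm16 and Trim33 18 for Pbx2.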

How the data were processed

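RNA from 9 sorted samples was amplified with the Ovation Pico V2 kit and hybridised to Affymetrix arrays, per the labels' protocols, which name MouseGene1.0st and MouseGene2.0st without saying which sample went on which. The deposited values are log2 expression, 1 per probe set and array; the submitters' processing notes name RMA and Partek, without versions. Which array description file or genome build lay behind them the sources used here do not give. RMA sets all arrays to a shared scale, so a change in total RNA per cell is not visible, and differences of dim genes are compressed. The number of arrays limits the precision. Of 21115 probe sets, 710 without a symbol were left out.

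From these values, two-sided limma tests (version 3.58.1, lmFit with eBayes, under R 4.3.3) gave a mean per population in 1 fit of 9 arrays, with 6 residual degrees of freedom and 2.75 added by eBayes. Tests were Benjamini-Hochberg adjusted over 20405 genes; an exact permutation test of 3 against 3 arrays cannot give a p under 0.1. The script was tested once on simulated data with 200 changed genes. For HSPC minus EC it recovered 88% of changes of 1 log2 unit and 99% of changes of 2. Of the calls at an adjusted p under 0.05, 8.78% were false. Where a lower group's mean was at or under 4.69, the fold is a bound: each of its arrays under 4.69 was raised to 4.69 before the means were compared. Such a bound leaves out the sampling error of the means.

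The 8 genes and 16 gene lists (159 of 174 entries measured) were chosen with earlier results of these data known. Named were the 8 genes, Cdh5 and Ptprc, all TALE and PR domain relatives, up to 4 genes per other list and comparison with the largest called differences plus those called in the opposite direction, and 3 nearest genes per member. Alternatives left out each array, used the replicate number as a block, rescaled arrays, left out dim probe sets, or changed the variance model, array weights or arrays fitted. Start site sequences are from a set of RefSeq start sites (GRCm38.p6) that held 6 of the 8 genes. Pbx3 and Pknox1 had no start site in that set.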

Additional observations from a re-analysis of the deposited data

How the results depend on the processing

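The 16 alternative settings gave 504 values for the 32 differences of the 8 genes (8 genes in 4 comparisons); 469 kept their direction and side of the threshold, 16 lost a call, 8 gained one and 11 changed sign. The sign changes all arose on leaving out 1 array, in differences that were not called: over arrays left out, Mecom for HSPC minus EC ranged from -0.23 to 0.13, Pknox1 from -0.028 to 0.27 for HSPC minus EC, from -0.085 to 0.21 for HSPC minus HC and from -0.057 to 0.24 against the midpoint, Pbx3 for HSPC minus HC from -0.10 to 0.046, and Meis2 against the midpoint from -0.63 to 0.043. Genes called against the midpoint numbered 1339, and 751 to 1220 with 1 array left out; the cause was not tested. Other counts of called genes stayed within 1.5 times: 2672 to 3512 with 1 array left out for HSPC minus EC, 2140 to 3075 for HSPC minus HC and 4767 to 5697 for HC minus EC. Centring each array on its median moved the share of calls that were higher in HSPC from 51.8% to 41.3% against EC and from 57.7% to 45.2% against the midpoint. The Pbx2 call for HSPC minus HC was also lost with centring (adjusted p = 0.0502) and with HSPC and HC fitted alone (0.0638); Pbx2 for HC minus EC was called after repeated quantile normalization (0.0344), with array weights (0.0416) and with HC and EC fitted alone (0.0457). The labels repeat replicate numbers across populations. Of 9 same-number pairs, 1 had a correlation of deviations over 0.1 (range -0.04 to 0.15). For 6 of the 9, the own number gave the highest correlation among the replicates of the other population. Such weak correlations cannot decide whether arrays with the same replicate number share embryos or a sort. With that number as a replicate block, calls were 3274, 2801, 5434 and 1222 in place of 3366, 2983, 5586 and 1339, Pbx2 for HSPC minus HC was not called (adjusted p = 0.0545) and Meis1 for HC minus EC was (0.0275). Under that block 1 of 12 other TALE genes, in place of 3, was lower in HSPC than in EC, and 0 of 16 elongation genes, in place of 1, were higher in HSPC than in HC. Signal at background limits Mecom in HC to a bound.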

Other observations

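Marker lists of other cell types were read on all arrays. The mean over 7 megakaryocyte markers ranged from 5.58 to 6.67 over EC arrays, from 6.37 to 7.32 over HSPC and from 6.68 to 6.72 over HC. Of the 7, 2, Gp9 and Itga2b, were higher in HSPC than in EC (1.17 and 0.84), beside 8.55% of all genes. Against HC, 1, Gp9, was higher in HSPC (0.74), beside 7.01% of all genes, while Pf4 for HSPC minus HC was -1.17 (limma adjusted p = 0.345). With 1 array left out, the count higher in HSPC ranged from 1 to 3 against EC and from 0 to 1 against HC. The Itga2b call was lost without EC replicate 1 or 3 (limma adjusted p = 0.0983 and 0.0917). The Gp9 call against HC was lost without HSPC replicate 1 or 3 or HC replicate 2 or 3 (0.0508 to 0.0668). The mean over 13 mesenchymal and mural markers ranged over the same groups from 5.31 to 5.66, 5.09 to 5.27 and 5.33 to 5.71. For 9 mesonephric epithelial markers it was 5.28 to 5.41, 5.49 to 5.51 and 5.33 to 5.49. The keratin gene Krt18, singled out after its values were seen, had means of 6.38, 8.27 and 6.07, and over the other 8 markers the ranges were 5.17 to 5.30, 5.12 to 5.22 and 5.23 to 5.38. The mean was, for 7 neural crest markers 4.68 to 5.11, 4.69 to 4.81 and 4.90 to 4.92, and for 7 erythroid markers 6.95 to 8.31, 7.39 to 7.90 and 7.36 to 8.11. For pan-leukocyte markers it was 5.82 to 5.89 in EC, where 4 of 10 were at background, 8.92 to 9.83 in HSPC and 10.5 to 10.6 in HC. The part of these cell types in the values of the 8 genes was not tested.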
